A study of Mus musculus with 18 samples.

Results

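The receptors that bind modified low-density lipoprotein (LDL) were followed in mouse macrophages that had been given oxidized LDL (oxLDL). The set holds 10 genes of the 18668 in the deposited table, chosen by name as the scavenger receptors Cd36, Scarb1, Scarb2, Msr1, Marco, Olr1, Cd68, Cxcl16 and Stab1 and the endocytic receptor Lrp1. All 10 passed the filter on low values. No measured value entered the choice, although it was made with earlier results of these data known.

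Bone marrow-derived macrophages (BMDM), which are marrow cells grown into macrophages with M-CSF, were derived from mice lacking Apoe (Apoe-/-) or lacking Apoe and Treml4 (Apoe-/-/Treml4-/-, DKO), both labelled with the background strain C57BL6. Apoe, the gene of apolipoprotein E, a protein of lipoprotein particles, is therefore deleted in every group, controls included, and no group has both genes intact. Cells of each genotype were untreated (PBS vehicle) or received oxLDL at 10 or 60 µg/ml (oxLDL 10 and oxLDL 60), with 3 replicates in each of the 6 groups. The series' design gives 16 h of treatment, while the study's methods give a longer time, and the labels' treatment protocol speaks of LPS instead, so the time of exposure was not settled. The ages of the animals were not given in the sources used here.

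Scavenger receptors are a mixed group of unrelated proteins that share a liking for polyanionic ligands such as oxidized or acetylated lipoprotein, apoptotic cells and bacteria. They are known for feeding the macrophage foam cell of atherosclerosis, in which CD36 and the class A receptor encoded by Msr1 take up much of the modified lipoprotein.

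All levels are of RNA, not protein, in RPKM, reads per kilobase of gene scaled to library depth, with the mean ± SD over n = 3 libraries. Fold changes are differences on the log2(RPKM + 0.1) scale from limma, followed by their standard error (SE), with p-values adjusted by Benjamini-Hochberg over all 12838 genes tested. A gene is called here, and said to have risen or fallen, if it changed at least 1.4-fold with an adjusted p below 0.05. Treml4 was at 1.86 to 8.39 RPKM in the 9 Apoe-/- libraries, and in the 9 DKO libraries it was listed at 0 in all but 1, which had 0.0116 RPKM. Apoe, deleted in all groups, was at 0.349 to 4.13 RPKM. Estimated depth was 39.6 to 54.1 M reads per library. All 8 macrophage markers were present (Csf1r at 409 to 630 RPKM), and the summed level of 6 dendritic cell markers did not exceed 0.372 RPKM. Other lists were not absent, with sums of 42.3 to 88.2 RPKM for 8 neutrophil markers and 0.567 to 14.6 RPKM for 6 fibroblast markers. In untreated cells the median log2 difference, DKO minus Apoe-/-, was 0.45 for the neutrophil markers tested and -0.68 for the fibroblast markers. None of these was called, and their part in the receptor values was not tested. In Apoe-/- replicate 2 and DKO replicate 3 Xist was expressed and Y-linked genes were at or near 0 at every treatment, the reverse of the other 4 animals, so results were also computed without the libraries of these 2 animals. In bulk RNA, fewer cells of a type and less RNA per cell cannot be told apart.

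Untreated macrophages held all 10 transcripts, over a range of levels from under 1 RPKM to about 500. In Apoe-/- cells the order was Cd68 (484 ± 45 RPKM), Cxcl16 (228 ± 31), Cd36 (196 ± 21), Msr1 (185 ± 24), Stab1 (125 ± 17), Lrp1 (77.1 ± 3.4), Scarb2 (28.7 ± 3.0), Scarb1 (20.8 ± 1.6), Olr1 (1.49 ± 0.42) and Marco (0.544 ± 0.112). The order was the same in DKO cells. In both genotypes the replicates of Cxcl16 and Cd36, and those of Cd36 and Msr1, overlapped, and all other neighbours were apart. With oxLDL 60 the order became Cd68, Cd36, Stab1, Cxcl16, Msr1, Lrp1, Scarb2, Scarb1, Olr1 and Marco in both genotypes, and Cxcl16 and Msr1 overlapped in Apoe-/- cells only. Summed over the 10 genes the level was 1347 ± 139, 1397 ± 72 and 1547 ± 67 RPKM in untreated, oxLDL 10 and oxLDL 60 Apoe-/- cells, and 1340 ± 59, 1414 ± 94 and 1467 ± 72 RPKM in DKO cells. Its makeup moved more than its size, as the plot of levels by dose shows.

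**Figure D1:**
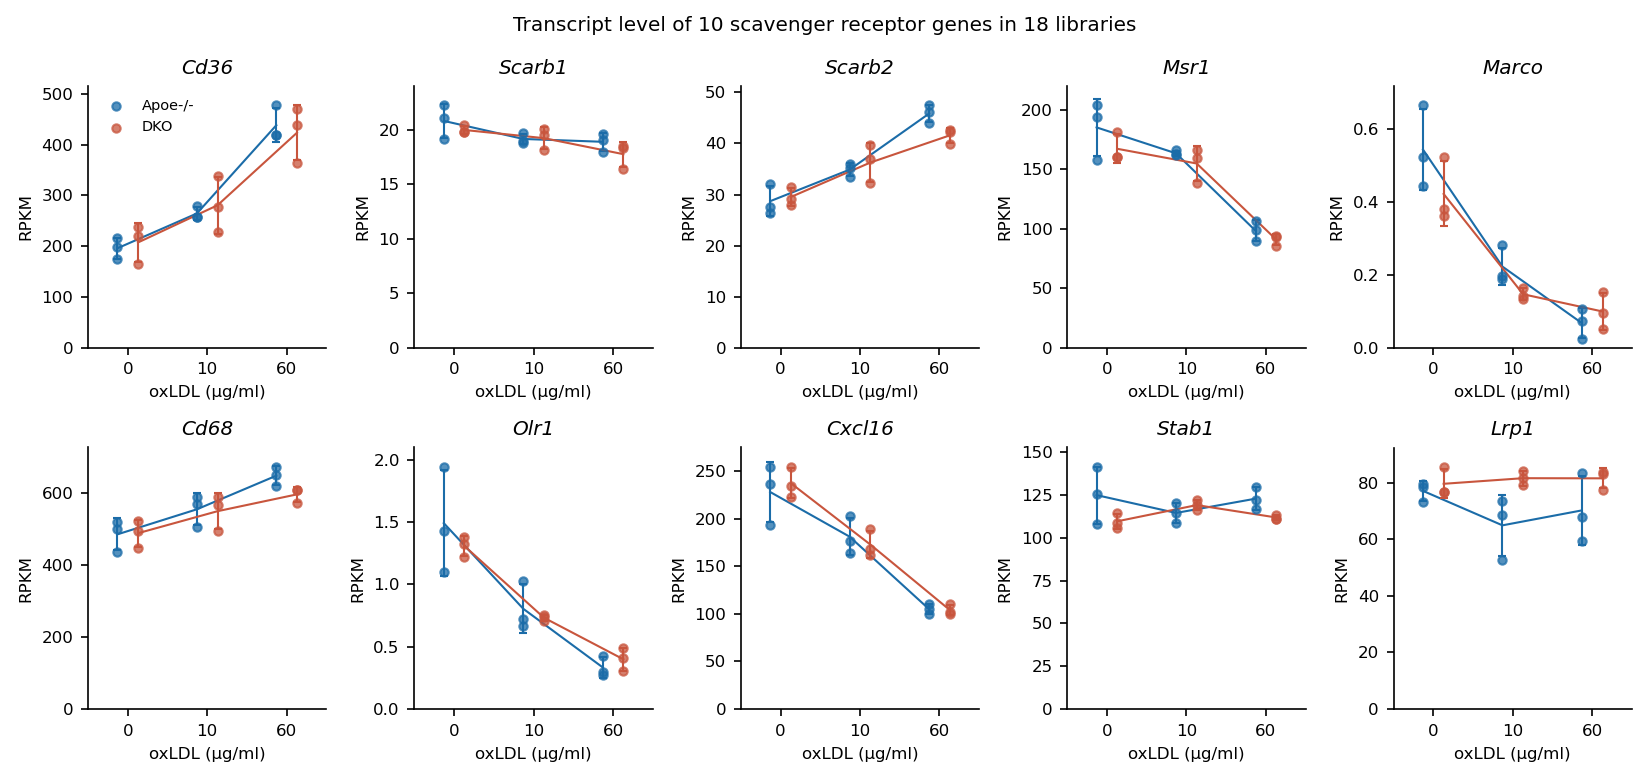
Level of each of the 10 receptor genes in RPKM (vertical axes, from 0) against oxLDL in µg/ml (horizontal axes, categories not to scale) in Apoe-/- (blue) and DKO (red) macrophages. Points are libraries, bars are the mean ± SD of 3, and lines join the means. Cd36, Scarb2 and Cd68 climb with dose, Msr1, Marco, Olr1 and Cxcl16 descend, and Scarb1, Stab1 and Lrp1 stay near their untreated level in both genotypes.

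At oxLDL 60, 2 of the 10 genes rose and 4 fell against untreated cells, and they were the same genes in Apoe-/- and DKO. Cd36 and Scarb2 rose, and Msr1, Marco, Olr1 and Cxcl16 fell. Over all genes tested, 7.13% were called higher and 6.78% lower in Apoe-/- cells, and 4.87% and 7.31% in DKO cells. The median log2 fold change of the 10 genes was -0.14 in Apoe-/- and -0.07 in DKO, beside 0.06 and -0.06 for all genes. At oxLDL 10 no gene of the set was called higher by limma and 2, Marco and Olr1, were called lower in each genotype, while 7 genes in Apoe-/- and 5 in DKO, in either direction, had an unadjusted p under 0.05, as did 22.4% and 13.2% of all genes. The share of all genes called at this dose was 0.748% higher and 2.04% lower in Apoe-/-, and 0.569% higher and 1.69% lower in DKO. Both doses were compared with the same untreated libraries, so the comparisons at 10 and 60 µg/ml are not independent.

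From oxLDL 10 to oxLDL 60, 1 gene of the set rose in each genotype, against 2.91% of all genes called higher in Apoe-/- and 1.92% in DKO. It was Cd36. In this step 4 genes fell in Apoe-/- (Msr1, Marco, Olr1 and Cxcl16), where 3.54% of all genes were called lower, and 3 in DKO (Msr1, Olr1 and Cxcl16), where 3.74% were. Leaving out 1 library decided some of these calls at the lower dose and in the step between doses, and these are given with each gene. Dose groups that did not overlap, in either direction, were common over all genes. Against untreated cells their share was 20.5% in Apoe-/- and 18.9% in DKO at oxLDL 10, and 40.7% and 42.6% at oxLDL 60. Between the doses it was 30.5% and 33.7%. Separate dose groups named below for single genes stand beside these shares.

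Macrophage markers moved with dose as well. Of the 8 listed, 1 rose (Mertk) and 4 fell in Apoe-/- at oxLDL 60, and 1 rose and 3 fell in DKO, with a median log2 fold change of -0.42 in both. Lyz2, the gene of lysozyme, fell from 8554 ± 1234 to 5621 ± 950.0 RPKM in Apoe-/-, and Adgre1, which encodes F4/80, from 517 ± 75 to 364 ± 33 RPKM. The summed level of the 8 was 8520 to 11268 RPKM in untreated and 5909 to 7841 RPKM in oxLDL 60 libraries of Apoe-/-, and 7918 to 10528 and 4987 to 6615 RPKM in DKO. Most of this sum was Lyz2, so it says little about the other markers. Some of these markers thus went down beside Msr1, Marco, Olr1 and Cxcl16, and their part in those values was not tested.

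**Figure D2:**
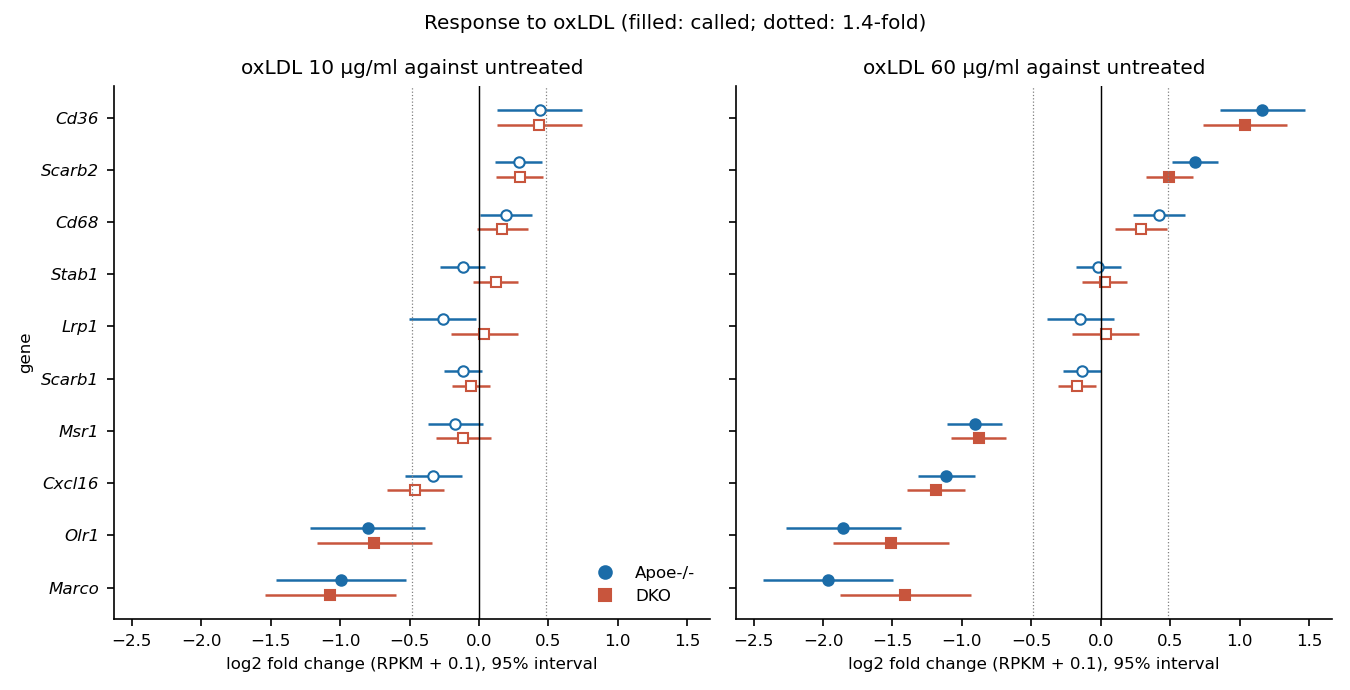
Log2 fold change of each receptor gene (horizontal axis, RPKM + 0.1, with 95% interval) at oxLDL 10 (left) and oxLDL 60 (right) against untreated cells, for Apoe-/- (blue circles) and DKO (red squares). Filled symbols were called and dotted lines mark a 1.4-fold change. At oxLDL 10 Marco and Olr1 alone are filled, and at oxLDL 60 Cd36, Scarb2, Msr1, Cxcl16, Olr1 and Marco are filled in both genotypes.

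For 4 of the 6 genes that were called at oxLDL 60, the RefSeq table used here holds a promoter window, and these are shown so that the sequences next to genes that moved in opposite directions can be read side by side. Each is the 250 bases before the RefSeq start (GRCm38.p6, all on the minus strand, written 5′ to 3′), with matches to the motifs searched in capitals. Windows were at chr5:17835897-17836146 for Cd36, chr5:92505658-92505907 for Scarb2, chr1:120505025-120505274 for Marco and chr6:129507166-129507415 for Olr1.
Cd36: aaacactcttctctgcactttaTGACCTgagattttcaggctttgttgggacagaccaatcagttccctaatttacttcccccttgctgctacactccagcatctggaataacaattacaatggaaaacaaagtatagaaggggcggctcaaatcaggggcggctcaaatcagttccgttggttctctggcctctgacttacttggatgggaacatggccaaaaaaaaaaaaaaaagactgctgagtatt
Scarb2: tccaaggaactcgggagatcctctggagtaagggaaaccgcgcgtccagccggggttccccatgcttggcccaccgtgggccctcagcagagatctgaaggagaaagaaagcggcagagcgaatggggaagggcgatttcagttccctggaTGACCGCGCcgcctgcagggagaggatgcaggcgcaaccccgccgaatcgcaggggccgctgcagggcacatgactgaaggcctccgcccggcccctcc
Marco: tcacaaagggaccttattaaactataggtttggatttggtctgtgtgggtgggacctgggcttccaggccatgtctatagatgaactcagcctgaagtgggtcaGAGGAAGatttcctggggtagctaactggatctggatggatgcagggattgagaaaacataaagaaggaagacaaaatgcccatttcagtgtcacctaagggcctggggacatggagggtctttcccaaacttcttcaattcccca
Olr1: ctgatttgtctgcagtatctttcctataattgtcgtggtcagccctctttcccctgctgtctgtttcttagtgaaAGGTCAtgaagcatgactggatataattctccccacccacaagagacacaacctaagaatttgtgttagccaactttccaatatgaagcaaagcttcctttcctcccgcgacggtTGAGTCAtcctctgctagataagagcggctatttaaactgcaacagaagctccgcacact
The windows of Marco and Olr1 end where the annotated gene begins. Those of Cd36 and Scarb2 lie inside the annotated gene, some of whose transcripts begin farther upstream, and no value in the table says which start was used.

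The motifs, searched on both strands, were the antioxidant response element core TGACNNNGC, the AP-1 element TGANTCA, the PU.1 core GAGGAAG and the nuclear receptor half-site AGGTCA. Among the 4 printed windows, Cd36 has a half-site on the reverse strand whose first base is at position -228 from the start, Scarb2 an antioxidant response element core at -99, Marco a PU.1 core at -146, and Olr1 a half-site at -175 and an AP-1 element at -60. Of the other 3 windows on hand, Cd68 has AP-1 elements at -149 and -24, Lrp1 an antioxidant response element core on the reverse strand at -160, and Stab1 none of these. Among all 32851 windows, 10.2% hold the antioxidant response element core, 6.75% the AP-1 element, 10.6% the PU.1 core and 14.0% the half-site. No window of the 7 holds half-sites in a row with 1 or 4 bases between them. AP-1 letters thus stand before Olr1, which fell, and before Cd68, which did not fall. A match is only a run of letters, and nothing here shows that a factor binds it.

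The class B receptors were described first. Cd36 encodes a fatty acid and oxidized phospholipid receptor and lies on chromosome 5 (GRCm38, 17781690 to 17888801). In Apoe-/- replicates 1 to 3 Cd36 measured 174, 198 and 215 RPKM untreated, 257, 279 and 258 RPKM with oxLDL 10, and 419, 478 and 419 RPKM with oxLDL 60. In DKO replicates it measured 219, 238 and 165 RPKM untreated, 277, 338 and 227 RPKM with oxLDL 10, and 438, 470 and 363 RPKM with oxLDL 60. The 3 dose groups did not overlap in Apoe-/-. In DKO the oxLDL 10 group overlapped the untreated one, since replicate 3, an Xist-positive animal, was the lowest of its group at every dose. Cd36 rose at oxLDL 60 at a log2 fold change of 1.17, with an SE of 0.14 and limma's adjusted p = 9.5e-06, in Apoe-/- and of 1.04 ± 0.14 (adjusted p = 3.7e-05) in DKO. At oxLDL 10 the values were 0.44 (adjusted p = 0.082) and 0.43 (adjusted p = 0.13), short of the threshold. In all 6 animals Cd36 was higher than in the untreated library of the same number. For this and later counts over 6 animals, the share of all genes with such agreement was not computed. With the animal as a block the adjusted p at oxLDL 10 became 0.00045 and 0.00052, and the fold change stayed under 1.4. Without DKO oxLDL 10 replicate 3, Cd36 was called at oxLDL 10 in DKO (0.58, adjusted p = 0.032). From oxLDL 10 to 60 the log2 fold change was 0.73 (adjusted p = 0.0023) in Apoe-/- and 0.60 (adjusted p = 0.0089) in DKO, and without DKO oxLDL 10 replicate 3 the latter was 0.46, under the fold limit.

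Scarb2 encodes LIMP-2, a lysosomal membrane protein that carries glucocerebrosidase to the lysosome, on chromosome 5 (92441314 to 92506833). Its level was 26.4, 27.6 and 32.1 RPKM in untreated Apoe-/- replicates, 35.2, 33.4 and 36.0 RPKM with oxLDL 10, and 44.0, 46.1 and 47.5 RPKM with oxLDL 60. The DKO values were 29.2, 31.4 and 28.0, then 37.0, 39.6 and 32.2, then 42.3, 42.6 and 39.8 RPKM. Every treated library lay above every untreated one of its genotype. Scarb2 rose at oxLDL 60 by a log2 fold change of 0.68 ± 0.08 (adjusted p = 4.9e-06) in Apoe-/- and of 0.49 ± 0.08 (adjusted p = 0.00016) in DKO, the latter a fold of 1.41, at the edge of the limit. It dropped under that limit without DKO untreated replicate 3 (0.46), oxLDL 60 replicate 1 (0.48) or oxLDL 60 replicate 2 (0.48). At oxLDL 10 it was higher by 0.28 and 0.29 in Apoe-/- and DKO (adjusted p = 0.040 and 0.050), below a 1.4-fold change.

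Scarb1, the class B receptor for high-density lipoprotein, on chromosome 5 (125277087 to 125341094), was not called in any comparison. It ranged from 16.5 to 22.3 RPKM over the 18 libraries. At oxLDL 60 the log2 difference from untreated cells was -0.14 (95% interval -0.27 to -0.0008, adjusted p = 0.12) in Apoe-/- and -0.17 (-0.31 to -0.03, adjusted p = 0.061) in DKO, and all 6 animals were lower at that dose. These intervals hold no change of 1.4-fold.

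The class A receptors followed. Msr1, which encodes the collagen-like receptor SR-A for acetylated and oxidized LDL, lies on chromosome 8 (39581685 to 39642673). Its Apoe-/- levels were 158, 204 and 194 RPKM untreated, 163, 166 and 162 RPKM with oxLDL 10, and 99.3, 107 and 89.4 RPKM with oxLDL 60. In DKO they were 160.3, 160.3 and 182, then 139, 160 and 167, then 85.5, 93.5 and 93.9 RPKM. The oxLDL 60 libraries lay below all others, while oxLDL 10 overlapped untreated in both genotypes. Msr1 fell at oxLDL 60 with log2 fold changes of -0.91 ± 0.09 (adjusted p = 1.2e-06) and -0.88 ± 0.09 (adjusted p = 1.9e-06), and at oxLDL 10 the values were -0.17 and -0.11 (adjusted p = 0.30 and 0.75). Thus the step from 10 to 60 µg/ml held most of the difference, at -0.74 and -0.77 (adjusted p = 4.3e-05 and 3.5e-05).

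Because Cd36 and Msr1 moved apart, the ratio of their RPKM in the same library changed with dose. It was 1.06 ± 0.08 in untreated Apoe-/- cells, 1.62 ± 0.05 with oxLDL 10 and 4.46 ± 0.23 with oxLDL 60. In DKO it was 1.25 ± 0.30, 1.83 ± 0.41 and 4.67 ± 0.70. This ratio was computed after the values were seen and carries no test.

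Marco, a class A receptor of tissue macrophages that also binds bacteria, on chromosome 1 (120474538 to 120505024), was barely expressed. It stood at 0.523, 0.444 and 0.666 RPKM in untreated Apoe-/- replicates, 0.197, 0.190 and 0.281 RPKM with oxLDL 10, and 0.105, 0.023 and 0.0729 RPKM with oxLDL 60. The DKO values were 0.362, 0.380 and 0.525, then 0.133, 0.164 and 0.143, then 0.0523, 0.151 and 0.0937 RPKM. At the length at which its values fall on whole reads, these levels rest on 29.0 to 56.9 reads in untreated libraries, 12.2 to 22.9 with oxLDL 10 and 2.01 to 13.9 with oxLDL 60. Untreated libraries were above all treated ones. Marco fell at oxLDL 10 by log2 fold changes of -0.99 ± 0.22 (adjusted p = 0.012) in Apoe-/- and -1.07 ± 0.22 (adjusted p = 0.0096) in DKO, and at oxLDL 60 by -1.96 (adjusted p = 3.4e-06) and -1.41 (adjusted p = 0.00013). The size of these values depends on the pseudocount, since at 0.01 the changes at oxLDL 60 were -3.01 and -2.07 and at 1 they were -0.53 and -0.37, the last no longer called. The call at oxLDL 10 was lost without Apoe-/- oxLDL 10 replicate 1 (adjusted p = 0.053) or DKO untreated replicate 3 (adjusted p = 0.066). Apoe-/- oxLDL 60 replicate 2, at 2.01 reads, was under a floor of 3 reads. From 10 to 60 µg/ml Marco fell in Apoe-/- (-0.97, adjusted p = 0.0069, but 0.053 without the Xist-positive libraries) and differed by -0.34 in DKO (adjusted p = 0.34).

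Olr1 encodes LOX-1, a C-type lectin best known as the oxLDL receptor of endothelium, on chromosome 6 (129485244 to 129507165). It also was low, at 1.10, 1.94 and 1.43 RPKM in untreated Apoe-/- replicates, 0.720, 1.03 and 0.665 RPKM with oxLDL 10, and 0.30, 0.429 and 0.275 RPKM with oxLDL 60. In DKO it was 1.22, 1.38 and 1.33, then 0.752, 0.742 and 0.705, then 0.486, 0.409 and 0.303 RPKM. The 3 doses gave 3 separate groups in each genotype, in descending order. Olr1 fell at oxLDL 60 with log2 fold changes of -1.86 ± 0.20 (adjusted p = 1.5e-06) and -1.51 ± 0.20 (adjusted p = 1.7e-05), and at oxLDL 10 with -0.80 (adjusted p = 0.020) and -0.76 (adjusted p = 0.038). The calls at oxLDL 10 were fragile. In Apoe-/- the call was lost without untreated replicate 2 (adjusted p = 0.10), oxLDL 10 replicate 1 (0.084) or oxLDL 10 replicate 3 (0.084), and in DKO it was lost without any 1 of the 6 libraries compared (0.075 to 0.13). All 6 animals were lower at both doses than untreated, a count taken from these same libraries. The step from 10 to 60 µg/ml was -1.05 (adjusted p = 0.0014) in Apoe-/- and -0.76 (adjusted p = 0.015) in DKO, the latter lost without DKO oxLDL 10 replicate 1 (adjusted p = 0.050) or oxLDL 60 replicate 3 (adjusted p = 0.074). The size of the Olr1 changes also depends on the pseudocount. With a pseudocount of 1 this step was -0.43 in Apoe-/- and -0.31 in DKO, both under the fold limit. The changes at oxLDL 60 were then -0.89 and -0.72, still called. As to endothelial markers, the summed level of 6 of them was 5.29 to 7.81 RPKM in untreated libraries of both genotypes and 8.71 to 12.4 RPKM with oxLDL 60, and in Apoe-/- most of it was Vwf, the 1 marker called in either genotype (3.81 ± 0.47 to 7.69 ± 0.74 RPKM). Cdh5 stood at 0.395 ± 0.043 and 0.304 ± 0.072 RPKM and Pecam1 at 0.187 ± 0.032 and 0.204 ± 0.036 RPKM in untreated and oxLDL 60 Apoe-/- cells, neither called. Kdr, also not called, was higher at oxLDL 60, at 2.68 ± 0.17 and 3.19 ± 0.17 RPKM in Apoe-/- and 2.79 ± 0.30 and 3.48 ± 0.25 RPKM in DKO. Their part in the Olr1 values was not tested.

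Cd68, or macrosialin, is a lysosomal glycoprotein used as a macrophage marker, on chromosome 11 (69664213 to 69666153). It was the most abundant of the set in each group, at 434 to 522 RPKM in the 6 untreated libraries, 492 to 589 RPKM with oxLDL 10 and 572 to 671 RPKM with oxLDL 60. The oxLDL 60 libraries lay above the untreated ones of either genotype. Its log2 fold change at oxLDL 60 was 0.42 ± 0.09 (adjusted p = 0.0014) in Apoe-/- and 0.29 ± 0.09 (adjusted p = 0.022) in DKO, or folds of 1.34 and 1.22, so it met the p limit and not the fold limit. Within the same animal it was higher at both doses in 6 of 6.

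Cxcl16 encodes SR-PSOX, a membrane-bound chemokine that binds oxLDL and, once shed, attracts cells bearing CXCR6, on chromosome 11 (70453983 to 70459984). Apoe-/- replicates had 193, 254 and 237 RPKM untreated, 176, 203 and 164 RPKM with oxLDL 10, and 105, 110.2 and 99.8 RPKM with oxLDL 60. DKO replicates had 223, 234 and 254, then 168, 162 and 189, then 102, 99.8 and 110.2 RPKM. The oxLDL 60 libraries formed a tight group below all others. Cxcl16 fell at oxLDL 60 by a log2 fold change of -1.11 ± 0.10 (adjusted p = 1.8e-07) in Apoe-/- and -1.19 ± 0.10 (adjusted p = 9.5e-08) in DKO. At oxLDL 10 it differed by -0.33 (adjusted p = 0.052) and -0.46 (adjusted p = 0.011), both short of 1.4-fold, and in DKO it passed the fold limit without untreated replicate 1 (-0.50) or oxLDL 10 replicate 3 (-0.52).

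Stab1 and Lrp1 were not called in any comparison. Stab1 encodes stabilin-1, a large receptor for acetylated LDL and matrix fragments of alternatively activated macrophages, on chromosome 14 (31139013 to 31168641), and it spanned 106 to 141 RPKM over all libraries. At oxLDL 60 it differed from untreated cells by -0.02 (95% interval -0.18 to 0.14) in Apoe-/- and 0.03 (-0.13 to 0.19) in DKO. Lrp1, a large endocytic receptor that takes up many ligands, among them apolipoprotein E remnants, lies on chromosome 10 (127538161 to 127621148) and spanned 52.7 to 85.6 RPKM. Its differences at oxLDL 60 were -0.15 (-0.39 to 0.09) and 0.04 (-0.21 to 0.28). None of these 4 intervals at oxLDL 60 holds a 1.4-fold change. At oxLDL 10 Lrp1 differed from untreated cells by -0.26 (-0.50 to -0.02, limma's unadjusted p = 0.036, adjusted p = 0.19) in Apoe-/-. That interval reaches past 1.4-fold. In DKO the difference at oxLDL 10 was 0.04 (-0.21 to 0.28).

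The genotype comparison asked whether loss of Treml4, a myeloid receptor of the TREM family, shifts this receptor set. None of the 10 genes was called between DKO and Apoe-/- at any treatment, where 0.210% (untreated), 0.0857% (oxLDL 10) and 0.125% (oxLDL 60) of all genes were called by limma. At an unadjusted p under 0.05 there was 1 gene untreated, 1 with oxLDL 10 and 0 with oxLDL 60, where 17.3%, 9.75% and 7.88% of all genes passed that limit. The 95% intervals lay within a 1.4-fold change, as the plot of genotype differences shows, except those of Marco and Olr1 at each treatment and of Lrp1 with oxLDL 10. For Cd36 the log2 difference DKO minus Apoe-/- was 0.07 (-0.24 to 0.38) untreated, turning to -0.03 when libraries were rescaled by median ratios, and -0.05 (-0.36 to 0.25) with oxLDL 60. For Msr1 it was -0.14 (-0.34 to 0.06) and -0.11 (-0.31 to 0.09). Stab1 was lower in untreated DKO cells, at 108, 114 and 106 RPKM against 108, 141 and 125 RPKM, a log2 difference of -0.18 (-0.34 to -0.02, unadjusted p = 0.031, adjusted p = 0.25), and the groups overlapped. With oxLDL 60 the 3 DKO libraries of Scarb2, Cd68 and Stab1 lay below the 3 of Apoe-/-, by -0.14, -0.12 and -0.13 on the log2 scale (adjusted p = 0.69, 0.76 and 0.69), where 16.5% of all genes had groups that did not overlap.

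Lrp1 with oxLDL 10 showed the largest difference between genotypes at that dose apart from Marco (-0.38, adjusted p = 0.58). It measured 84.2, 81.5 and 79.0 RPKM in DKO and 73.5, 52.7 and 68.5 RPKM in Apoe-/-, groups that did not overlap (12.1% of all genes had such groups, and so had Marco, lower in DKO), with a log2 difference of 0.34 (0.10 to 0.58, unadjusted p = 0.0083, adjusted p = 0.40). The longest annotated Lrp1 transcript has 14888 bases, and the 3 genes whose levels followed it most closely over the 18 libraries, Ubr4 (Pearson r = 0.93), Dync1h1 (0.92) and Nav1 (0.89), have longest transcripts of 15928, 14342 and 13117 bases, against a median of 3231 for genes tested. Over the 18 libraries the deviation of Lrp1 from its group mean went with the median deviation of 206 other genes with transcripts of at least 10000 bases (r = 0.82, a description, since these genes share the library). In Apoe-/- oxLDL 10 replicate 2, the lowest library for Lrp1 and Xist-positive, that median was -0.12 on the log2 scale, against -0.03 for shorter genes. Replicate 2 was also the lowest for Lrp1 in Apoe-/- with oxLDL 60 (59.3 RPKM against 67.7 and 83.5 RPKM). With oxLDL 10 it had little of the fibroblast transcript Col1a2 (0.380 RPKM against 7.48 and 4.22 RPKM in replicates 1 and 3). The same held untreated (0.412 RPKM), when its Lrp1 level of 78.6 RPKM was within the range of its group. Deviations from a group mean do not compare groups. Between groups, the mean log2 level of long genes minus that of shorter ones was -1.13 ± 0.08 in Apoe-/- and -1.06 ± 0.03 in DKO with oxLDL 10. Untreated it was -0.97 ± 0.02 and -1.01 ± 0.06, and with oxLDL 60 -1.15 ± 0.09 and -1.01 ± 0.02. The part of transcript length and of fibroblasts in the Lrp1 difference was not tested.

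**Figure D3:**
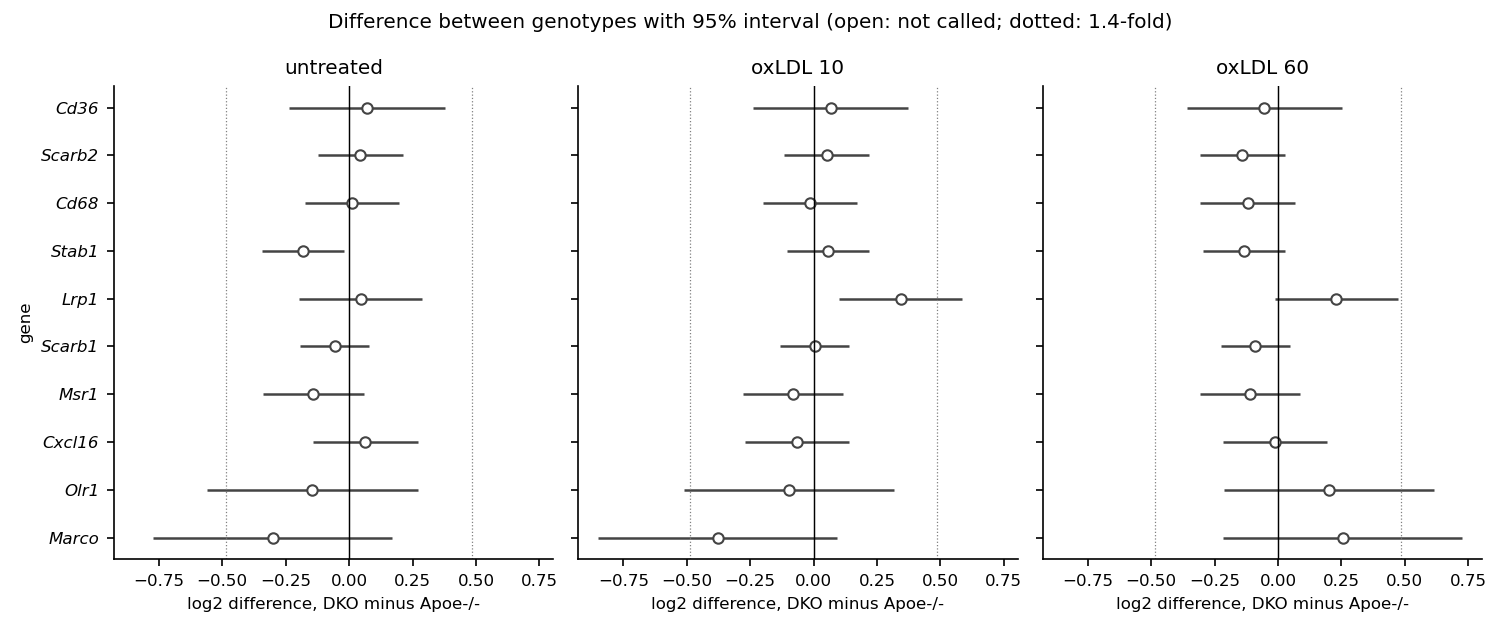
Log2 difference of each receptor gene between DKO and Apoe-/- cells (horizontal axes, DKO minus Apoe-/-, with 95% interval) in untreated, oxLDL 10 and oxLDL 60 macrophages. Open points were not called and dotted lines mark a 1.4-fold change. No point is filled, and the Marco and Olr1 intervals are the widest.

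The response to oxLDL was also compared between genotypes through the interaction term. None of the 10 genes was called at oxLDL 10, where 0.00% of all genes were, or at oxLDL 60, where 0.0156% were. At an unadjusted p under 0.05, limma listed 1 of the 10 at oxLDL 10 (Stab1, 0.24, adjusted p = 1.00) and 0 at oxLDL 60, beside 1.92% and 9.78% of all genes. The interaction at oxLDL 60 was -0.13 (95% interval -0.56 to 0.31) for Cd36, 0.03 (-0.25 to 0.31) for Msr1, -0.18 (-0.42 to 0.05) for Scarb2 and 0.56 (-0.11 to 1.22) for Marco. The intervals of Cd36, Lrp1, Marco and Olr1 reach past a 1.4-fold difference.

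Genes whose levels ran most closely with each receptor were taken from 10102 genes with a mean of at least 1 RPKM, by Pearson correlation over all 18 libraries. These correlations follow the shared effect of dose and are a description. For Cd36 they were Galnt6, Rnf128 and Gde1 (r = 0.98 to 0.99), and for Scarb2 Gnpda1, Fech and Gpcpd1 (0.98). Cd68 ran with Ctsd (0.97), Brap and Psap (0.97), of which Ctsd and Psap encode the lysosomal proteins cathepsin D and prosaposin. For Cxcl16 they were Vasp, Trex1 and Nfkbia (0.99), the last encoding an inhibitor of NF-kappaB, for Msr1 Acsl5, Rnf145 and Gda (0.98), and for Olr1 Slc31a2, Pde4b and Casp4 (0.98 to 0.99). Marco, Scarb1 and Stab1 had looser companions, with Cd69, Hdac9 and Enpp4 (0.94 to 0.95), Tmem173, Lgals9 and Car13 (0.90 to 0.93), and Ctsz, Man2b1 and AI837181 (0.78 to 0.79).

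Within the set, Cd36 and Scarb2 had r = 0.96, Msr1 and Cxcl16 0.96, and Cd36 and Cxcl16 -0.93. Once each library was set against its own group mean, Cd36 and Scarb2 kept r = 0.76 and Msr1 and Cxcl16 0.75, while Cd36 and Cxcl16 had -0.17. The last pair thus moved apart with dose and showed little of this between animals.

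The wider receptor family was then counted from a list of 26 other scavenger and lipoprotein receptors, of which 19 passed the filter on low values. At oxLDL 60, 3 rose and 4 fell in each genotype, and at oxLDL 10 none rose and 3 fell (4 had an unadjusted p under 0.05 by limma in each). Of all genes, 7.13% rose and 6.78% fell in Apoe-/- and 4.87% and 7.31% in DKO at oxLDL 60, and 0.748% and 2.04%, and 0.569% and 1.69%, at oxLDL 10. Cd14, the lipopolysaccharide co-receptor, and Fcgr2b, the inhibitory Fc receptor, fell at both doses, with -1.61 and -1.45 in Apoe-/- at oxLDL 60. The call of Cd14 at oxLDL 10 in Apoe-/- was lost without untreated replicate 2, oxLDL 10 replicate 1 or oxLDL 10 replicate 3 (adjusted p = 0.058 to 0.070). That of Fcgr2b was lost in Apoe-/- without untreated replicate 2 (0.069) or oxLDL 10 replicate 1 (0.050), and in DKO without untreated replicates 2 or 3 or oxLDL 10 replicates 1 or 2 (0.098 to 0.21). Scarf1, a receptor for acetylated LDL first found on endothelium, fell at oxLDL 60 (-0.83 in both). In the other direction Lrp8, the apolipoprotein E receptor 2, rose from 3.19 ± 0.41 to 10.5 ± 1.3 RPKM at oxLDL 60 in Apoe-/- (1.69, adjusted p = 2.5e-06) and Lrp12 and Cd5l, a secreted macrophage protein, rose by 1.02 and 0.74. In DKO these 3 rose by 1.38, 0.77 and 0.63, and the call of Cd5l there was lost without untreated replicates 1 or 2 (adjusted p = 0.057 each) or oxLDL 60 replicate 3 (0.079).

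A second list held 34 genes whose products work with, process or regulate these receptors, 33 of them tested. At oxLDL 60, 4 rose and 9 fell in Apoe-/-, and 2 rose and 9 fell in DKO. At oxLDL 10, 2 rose and 2 fell in each. The shares of all genes are those given for the receptor list, 7.13% higher and 6.78% lower in Apoe-/- at oxLDL 60 among them. Mylip, a ubiquitin ligase induced by sterol-sensing LXR receptors, rose from 11.8 ± 2.7 to 22.9 ± 2.6 and 30.6 ± 2.2 RPKM in Apoe-/- (1.39 at oxLDL 60, adjusted p = 1.6e-06), and Srebf2, a regulator of sterol synthesis, fell from 15.9 ± 1.3 to 7.55 ± 0.33 and 6.95 ± 0.72 RPKM (-1.18, adjusted p = 2.6e-07). At oxLDL 10 in Apoe-/-, Lrp8 (0.70) would be called without oxLDL 10 replicate 2, and Mitf without that library (-0.50) or untreated replicate 1 (-0.50). Tlr2, a Toll-like receptor that acts with CD36, fell in both (-1.72 and -1.73). Among transcription factors, Maf (-1.31), Nr1h3 (-1.01), which encodes the oxysterol receptor LXRalpha, Mitf (-0.66) and Spi1 (-0.64), which encodes PU.1, fell in Apoe-/- at oxLDL 60. In DKO they also fell, with log2 fold changes of -1.40, -0.91, -0.58 and -0.68. Pparg, a known regulator of Cd36 that the naming rule did not take and that was picked after its values were seen, differed by 0.41 in Apoe-/- (adjusted p = 0.0051) and 0.34 in DKO (adjusted p = 0.020) without reaching 1.4-fold. No gene of either list was called by limma between genotypes at any treatment, and at an unadjusted p under 0.05 there were 3, 2 and 2 of the 19 receptors and 5, 5 and 5 of the 33 partners in untreated, oxLDL 10 and oxLDL 60 cells, beside 17.3%, 9.75% and 7.88% of all genes.

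**Figure D4:**
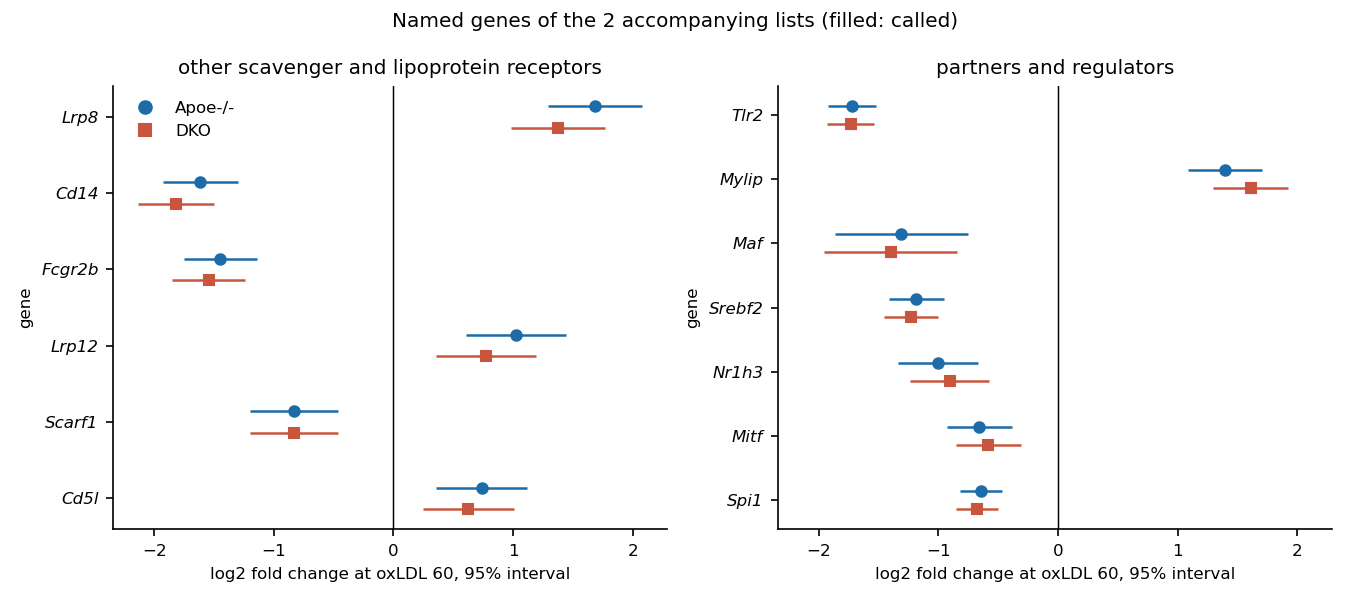
Log2 fold change at oxLDL 60 against untreated cells (horizontal axes, 95% interval) of 6 other receptors (left) and 7 partners and regulators (right) in Apoe-/- (blue circles) and DKO (red squares). Filled symbols were called. Cd14, Fcgr2b and Scarf1 lie below 0 and Lrp8, Lrp12 and Cd5l above it. Among the 7 partners and regulators shown, which are not the whole list, Mylip alone has a positive value.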

How the data were processed

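RNA of 18 BMDM libraries was sequenced, and the study's methods describe library preparation with poly(A) selection. The authors aligned reads with STAR to mm10, per the labels' processing notes, and deposited RPKM for 18668 gene symbols. RPKM hold no counts, so the DESeq2 test of the study's methods could not be run here. The annotation was not given in the sources used here, and the labels list differing sequencers without assigning libraries. Reads of abundant RNAs lower every other RPKM of a library, and 1355 values under 1e-6 were read as 0.

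The 12838 genes that reached 0.1 RPKM in 3 or more libraries were fitted on log2(RPKM + 0.1), which understates changes of low genes, with limma 3.58.1 in R 4.3.3 (6 group means over 18 libraries, eBayes with a trend). Calls needed a Benjamini-Hochberg adjusted p under 0.05 within a comparison and a fold of at least 1.4. The 11 comparisons were 3 of dose within each genotype, 3 of genotype and 2 interactions. The model was run on simulated data with independent noise in each library, which leaves out any correlation between libraries of the same animal. The series' design calls replicates biological and names no animals. Deviations from the group means correlated for each of the 18 pairs sharing genotype and number (r = 0.18 to 0.69), so the number was taken as the animal, and the fit with that block is an alternative. The members and lists were chosen with earlier results of these data known. Named were the 10 members, of each list up to 8 genes called with oxLDL (largest change first), and for each member the 3 genes most correlated with it. Some genes that the rule takes are not reported here, although the list counts include them.

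Depth was estimated from low RPKM, which rise in steps of 1 read, with GENCODE M21 lengths, which 97.3% of symbols had. Of the values of single-transcript genes, 59.0% to 67.0% per library lay within 0.05 of a whole read. At that depth 3 reads over 1 kb equal 0.0554 to 0.0758 RPKM, a limit for counting error only. Gene coordinates are GENCODE M21 (GRCm38) and promoters RefSeq (GRCm38.p6), with an entry for 7 of the 10 members. Python 3.11.15 drew plots with matplotlib 3.10.9. Alternatives were the pseudocount, filter, scaling, animal block, samples in the fit, prior trend, fold limit, the Xist-positive animals and each library left out.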

Additional observations from a re-analysis of the deposited data

How the results depend on the processing

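The counts of called receptors at oxLDL 60 against untreated ranged from 5 to 7 in Apoe-/- and from 4 to 7 in DKO over the alternatives run, against 6 reported in each, and no receptor was called between genotypes or for the interaction under any of them. The sign of 26 of those 50 uncalled differences changed in at least 1 alternative. With the animal as a replicate block, the counts were 2 and 2 at oxLDL 10, 6 and 6 at oxLDL 60, and 5 and 4 between the doses, in Apoe-/- and DKO, as without it, and the block changed no call of a named gene. The counts at oxLDL 10 depended on the processing, with losses of Marco and Olr1, which are low, and gains of Scarb2, Cxcl16 and Cd36. In Apoe-/- the 2 calls became 1 with a pseudocount of 0.01, 0 with a pseudocount of 1, 1 with a filter of at least 1 RPKM (which removes Marco), 1 in a fit of only the groups compared, 3 without the fold limit, and 0 to 2 without single libraries. In DKO the 2 calls became 0 with either pseudocount, 1 without a filter, 1 with the stricter filter, 4 without the fold limit, 1 without the Xist-positive libraries, and 0 to 3 without single libraries. Between oxLDL 10 and 60 in Apoe-/- a pseudocount of 1 left 3 of 5 calls. Small values changed sign. The untreated Cd36 difference between genotypes became -0.029 after rescaling by median ratios and ranged from -0.037 to 0.23 without single libraries. Stab1 at oxLDL 60 became 0.036 in Apoe-/- and -0.0047 in DKO without the Xist-positive libraries, and ranged from -0.12 to 0.077 in Apoe-/- without single libraries. Maf at oxLDL 10 in DKO ranged from -0.39 to 0.083 without single libraries. The factors of that rescaling were 0.890 to 1.06, and without it the median interaction of all genes at oxLDL 60 was -0.11. The cause was not tested where the setting's construction does not show it. Depth limits Marco, at 2.01 to 56.9 reads per library, and Olr1, at an estimated 42 to 299, while each of the other 8 members rests on an estimated 6240 reads or more.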
